A study of Mus musculus with 15 samples.

Results

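The Wnt ligands, receptors and modulators are 56 listed mouse genes that carry, receive or adjust Wnt signals, and they were followed here in sorted cells of the embryonic thalamus. A gene was taken where the array annotation of a transcript cluster named it and no other gene, and of several such clusters the one with the highest mean was used. This gave 55 of the 56 genes, of 22180 genes in the table; Tcf7 is not analysed here. A filter that left out the 25% of genes with the lowest mean level kept 49 of them, of 16635 genes tested.

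Total RNA was measured on 15 Affymetrix arrays in 5 groups of 3 biological replicates. At embryonic day 18.5 (E18.5) the groups were double-labelled, red and green cells, and at E14.5 they were red and green cells. All embryos carried Gbx2CreER-IRES-EGFP/+ and R26lsl-tdTomato/+ on a C57BL/6 background, and their mothers received 4 mg tamoxifen, at E9 where cells were taken at E18.5 and at E9.5 where they were taken at E14.5. Green fluorescence reports the Gbx2 locus, which is active in postmitotic thalamic neurons, and red fluorescence marks cells that had active CreER after tamoxifen and their descendants. Every group therefore had 1 modified Gbx2 allele and tamoxifen, the colours depend on the day of tamoxifen, and the sort gates and the embryos pooled per array are not given in the sources used here. Levels are log2 signals, given per array in the order of replicates 1 to 3, and means carry the SD of 3 arrays.

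Wnt proteins are secreted, lipid-modified ligands that bind Frizzled receptors. In the beta-catenin branch, Lrp5 or Lrp6 acts as co-receptor, the Axin complex stops degrading beta-catenin, and beta-catenin joins Lef1 and the Tcf proteins on DNA. R-spondins strengthen the signal by binding Lgr receptors and removing the E3 ligases Znrf3 and Rnf43, while Dkk, Sfrp and Wif1 proteins weaken it outside the cell. In the diencephalon, Wnts of the dorsal midline and the zona limitans are known to pattern the thalamus, and Fzd3 and Ryk are known from mouse studies of axon guidance.

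Between colours within a stage, 5 of the genes passed the test, and the promoters of the 3 of them that matched the RefSeq table are shown because Lef1 is itself one of the proteins that bind DNA in this pathway and Axin2 is a known target of it. In all, 39 of the 56 genes matched. Each window runs from 250 bases before to 50 bases after the start of the gene, 5′ to 3′ on the strand of the gene, in RefSeq's GRCm38.p6. Capitals mark the letters CTTTG, the core that Lef1 and Tcf proteins bind, or CAAAG where the core lies on the other strand. Axin2 lies at chr11:108920099-108920398 on the plus strand, Lef1 at chr3:131110047-131110346 on the plus strand (the most 5′ of 4 windows) and Fzd1 at chr5:4758167-4758466 on the minus strand.
Axin2: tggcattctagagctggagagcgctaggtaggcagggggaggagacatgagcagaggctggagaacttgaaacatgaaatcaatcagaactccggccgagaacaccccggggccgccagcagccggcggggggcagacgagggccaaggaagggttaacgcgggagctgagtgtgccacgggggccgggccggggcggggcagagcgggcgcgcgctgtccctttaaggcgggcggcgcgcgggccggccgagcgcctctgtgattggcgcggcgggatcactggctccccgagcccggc
Lef1: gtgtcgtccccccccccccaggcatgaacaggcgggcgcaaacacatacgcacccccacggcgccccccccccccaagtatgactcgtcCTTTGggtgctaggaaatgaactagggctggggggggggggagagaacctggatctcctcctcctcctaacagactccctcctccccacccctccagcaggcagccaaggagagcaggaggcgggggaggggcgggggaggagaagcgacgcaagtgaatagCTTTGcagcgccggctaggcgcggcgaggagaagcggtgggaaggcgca
Fzd1: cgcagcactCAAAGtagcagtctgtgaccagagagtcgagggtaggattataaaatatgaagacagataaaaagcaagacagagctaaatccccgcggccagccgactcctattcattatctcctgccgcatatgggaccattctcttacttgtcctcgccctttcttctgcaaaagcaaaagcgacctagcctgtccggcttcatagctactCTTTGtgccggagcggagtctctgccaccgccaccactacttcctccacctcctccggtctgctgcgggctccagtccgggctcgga
The core was found 2 times in the Lef1 window, at -161 and 2 from the start, and 2 times in the Fzd1 window, at -241 and -37. It was found 0 times in the Axin2 window, whose GC content was 70.0%. Of 32851 windows in the table, 53.9% held the core on either strand. The longer form CTTTGNN with A or T at each N, which contains the core, was in 0 of these 3 windows and in 16.9% of all. The homeodomain core TAATTA was in 0 of the 3 and in 5.29% of all.

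The label of the cells was checked against 7 thalamic neuron markers, all above the filter. Gbx2 averaged 8.33 ± 0.29 in double-labelled, 6.35 ± 0.86 in red and 8.43 ± 0.17 in green cells at E18.5, and 7.30 ± 0.03 in red and 8.07 ± 0.17 in green cells at E14.5. Most of the 7 markers were lower in red cells. Positive red-green differences were found in 1 of 7 at E18.5 and in 2 of 7 at E14.5. The medians were -0.45 at E18.5 and -0.46 at E14.5, against -0.01 and 0.00 over all genes. By limma's test, red cells were lower in Gbx2 and Lhx9 at E18.5 and in Lhx2 and Lhx9 at E14.5. Rora went the other way: it was higher in red cells at E14.5 (7.31 ± 0.10 in red, 6.25 ± 0.45 in green, limma adjusted p = 0.00268). At E18.5 it had 7.60 in red and 6.94 in green cells without a call. The first replicates of red and double-labelled cells at E18.5 had a narrower range of values (SD of all values 1.34 and 1.31) than the other E18.5 arrays (1.44 to 1.51). The median SD within groups was 0.218 at E18.5 and 0.122 at E14.5. The deposited values carry a shift between stages, with a median of 0.60 in red and 0.61 in green cells over all genes, so levels are set across stages only after quantile normalization over the 15 arrays. No detection calls were used, and several Wnt ligands lay near the filter mean of 5.07, where a level cannot be told from background. In bulk samples, fewer cells of a type and less RNA per cell cannot be told apart. The values of all 55 genes on every array are drawn in the heat map.

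**Figure D1:**
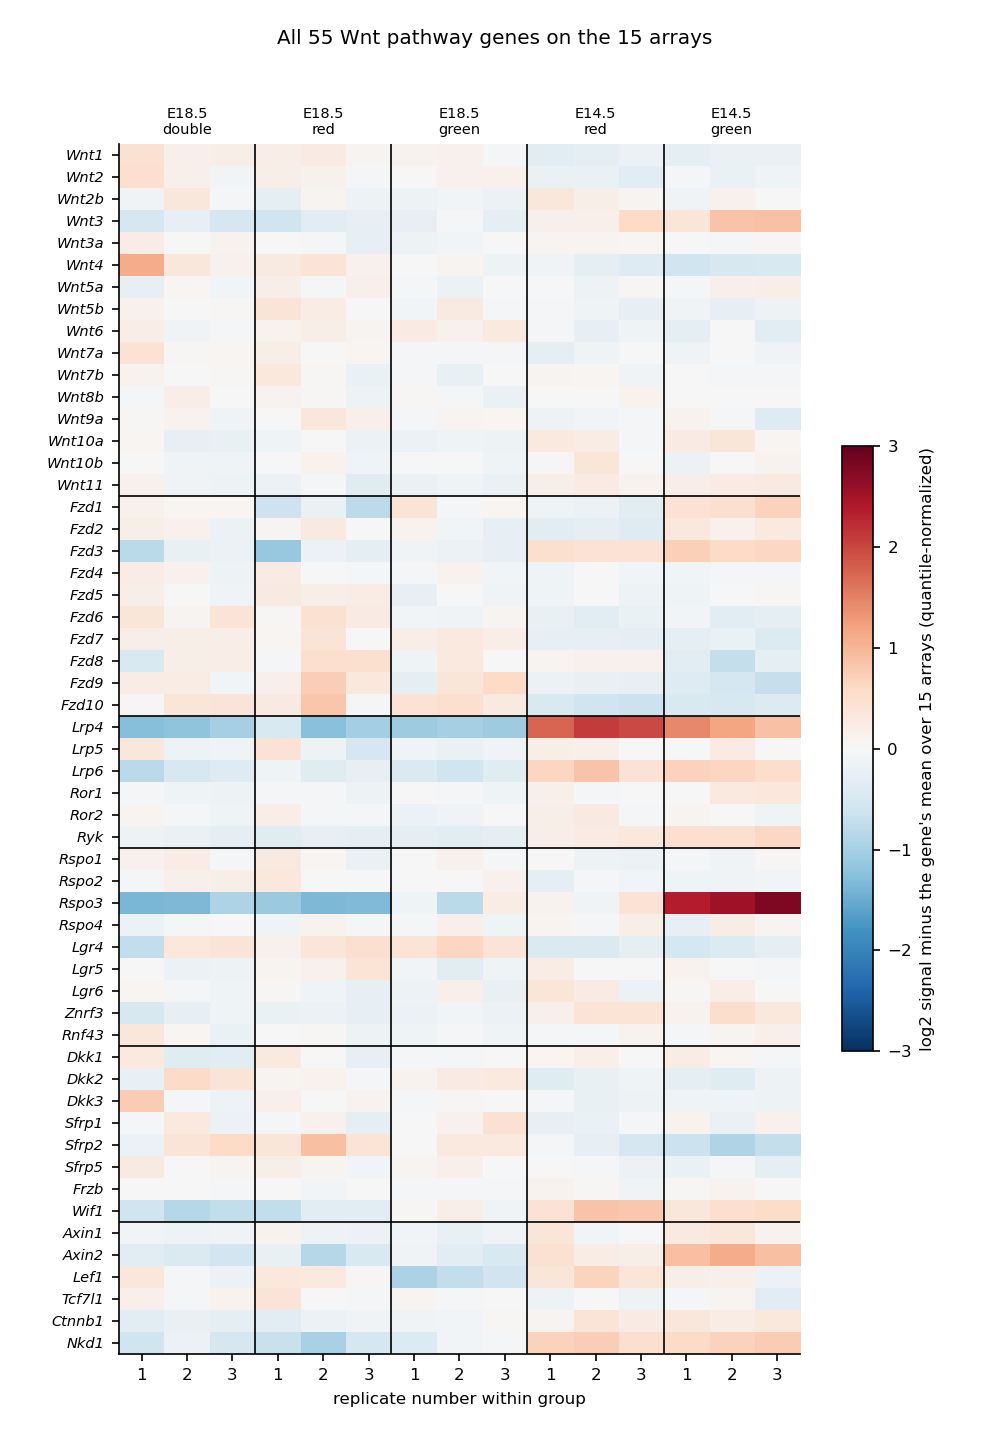
Quantile-normalized log2 signal of the 55 Wnt genes (rows, grouped from top to bottom as ligands, Frizzled receptors, co-receptors and kinases, R-spondin module, secreted inhibitors and intracellular components) on the 15 arrays (columns, 3 replicates per group), relative to the mean of each gene. Rspo3 stands out in E14.5 green cells and Lrp4 in both E14.5 groups, while E18.5 red and double-labelled replicate 1 differ from their group mates in Fzd3.

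At E14.5, red cells were compared with green cells to find Wnt genes that differ between thalamic populations. The agonist Rspo3 was 5.72-fold lower in red cells, and the receptor Fzd1 and the feedback regulator Axin2 were also lower, while the co-receptor Lrp4 was higher. These 4 genes were the ones that passed limma's moderated test at an adjusted p of 0.05, of 49 tested (8.16%), against 3.52% of all genes (1.89% higher and 1.64% lower in red cells). At an unadjusted p under 0.05 there were 9 of the 49, against 11.9% of all genes. The members' median difference was 0.03, against 0.00 over all genes. Groups did not overlap for 12 of the 49 genes, against 27.9% of all genes, so on that measure the Wnt genes were no more often apart than genes in general.

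Rspo3, a secreted R-spondin, had levels of 6.50, 6.27 and 6.91 in red cells, against 8.83, 9.07 and 9.33 in green cells. Every red array lay far below every green array. The means were 6.56 ± 0.32 in red and 9.07 ± 0.25 in green cells, a log2 difference of -2.52 ± 0.25 (SE, limma adjusted p = 7.69e-05), and the call held under all 15 alternatives. Of the other R-spondins, Rspo1, Rspo2 and Rspo4 differed by -0.07, 0.00 and 0.08 and did not pass (limma adjusted p 0.964, 1.0 and 0.947). Their receptors Lgr4, Lgr5 and Lgr6 differed by 0.04, 0.09 and 0.09, and the ligases Znrf3 and Rnf43 by 0.03 and 0.00, with a lowest adjusted p of 0.949.

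Fzd1, a seven-pass Frizzled receptor, had levels of 6.32, 6.25 and 6.12 in red cells, against 6.92, 6.97 and 7.21 in green cells. The groups did not overlap. Fzd1 was 1.74-fold lower in red cells (log2 difference -0.80 ± 0.15, limma adjusted p = 0.00859). Without green replicate 3 the adjusted p was 0.0656, the only one of 15 alternatives that ended the call. Among the other 8 Frizzleds tested, the difference with the lowest p was that of Fzd8, with 5.92, 5.95 and 5.99 in red cells against 5.49, 5.12 and 5.53 in green cells (0.58 ± 0.19, limma adjusted p = 0.140). Fzd8 was above the green range on all 3 red arrays, and it passed with array weights (adjusted p 0.00410), without the 2 narrow-range arrays (0.00875) and with the 6 E14.5 arrays fitted alone (0.0169).

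Axin2, a scaffold of the complex that degrades beta-catenin and itself a common target of the pathway, had levels of 6.55, 6.29 and 6.33 in red cells, against 7.06, 7.29 and 7.08 in green cells. The groups did not overlap. Axin2 was 1.69-fold lower in red cells (-0.75 ± 0.16, limma adjusted p = 0.0142). Its second transcript cluster differed by -0.47, with means of 6.51 in red and 6.97 in green cells. The mean of both clusters differed by -0.61 and did not pass (limma adjusted p = 0.135), and leaving out red replicate 2 or 3 or green replicate 2 or 3 also ended the call (adjusted p 0.0757, 0.0595, 0.0923 and 0.0552).

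Lrp4, a member of the LDL-receptor family that modulates Wnt signalling and receives agrin at synapses, had levels of 8.23, 8.53 and 8.50 in red cells, against 7.95, 7.71 and 7.40 in green cells. All red arrays were above the green ones. Lrp4 was 1.66-fold higher in red cells (0.73 ± 0.18, limma adjusted p = 0.0408). This call was close to the threshold: it was lost with no filter on dim genes (adjusted p 0.0534) and on leaving out any single E14.5 array other than green replicate 1 (adjusted p between 0.0642 and 0.242). The co-receptors Lrp5 and Lrp6 differed by 0.05 and -0.05, with adjusted p of 0.989 and 0.983.

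Of the 14 Wnt ligands tested, 0 passed at E14.5 (differences between -0.38 for Wnt3 and 0.27 for Wnt4, lowest adjusted p 0.320). The 6 secreted inhibitors tested also had 0 calls, with differences between -0.12 for Sfrp1 and 0.51 for Sfrp2 and a lowest adjusted p of 0.395. Lef1, the DNA-binding partner of beta-catenin, had a difference of 0.35 (limma adjusted p = 0.288), and beta-catenin itself, Ctnnb1, one of -0.14 (adjusted p = 0.910). Array weights called Wnt3, Wnt4, Sfrp2 and the receptor Ryk as well (limma adjusted p 0.0416, 0.0443, 0.00973 and 0.00512).

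Other cell markers also moved between the E14.5 colours. The summed level of the roof plate, choroid plexus and cortical hem list (6 of 8 markers in the table, 5 above the filter) ranged from 7.72 to 7.77 in red and from 8.27 to 8.51 in green cells on the log2 scale. A sum of signals follows the brightest genes of a list. Of the 5 genes tested, 3 had positive red-green differences, with a median of 0.03 against 0.00 over all genes. Otx2 passed the test, with 5.86 in red and 7.49 in green cells, and was the 1 call of the list. No call was made for Ttr (4.77 in red, 4.90 in green) or Lmx1a (4.86 in red, 4.75 in green). The same held for Folr1 (5.18 in red, 5.04 in green) and Aqp1 (5.31 in red, 5.28 in green), all at low signals. The summed level of the progenitor list (8 of 8) ranged from 11.06 to 11.20 in red and from 11.31 to 11.36 in green cells, but the mean level of its genes overlapped (6.76 to 7.04 in red, 6.96 to 7.02 in green), 5 of 8 had positive differences, Slc1a3 passed as higher in red cells (5.66 in red, 4.65 in green) and Nes as lower (6.42 in red, 6.96 in green). The summed level of the thalamic neuron list (7 of 7) ranged from 12.35 to 12.44 in red and from 12.62 to 12.75 in green cells. In the zona limitans and prethalamus list (6 of 8), 5 genes had positive differences. Gad2 was higher in red cells (6.48 in red, 5.66 in green, limma adjusted p = 0.0136) and Foxa1 lower (4.92 in red, 5.65 in green, adjusted p = 0.0414). Gad1 (4.87 in red, 4.77 in green) had no call. The embryonic globin Hbb-y, the 1 of 5 erythroid markers in the table, ranged from 6.21 to 7.18 in red and from 5.09 to 5.25 in green cells. The part of these markers in the differences of Rspo3, Fzd1, Axin2 and Lrp4 was not tested.

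**Figure D2:**
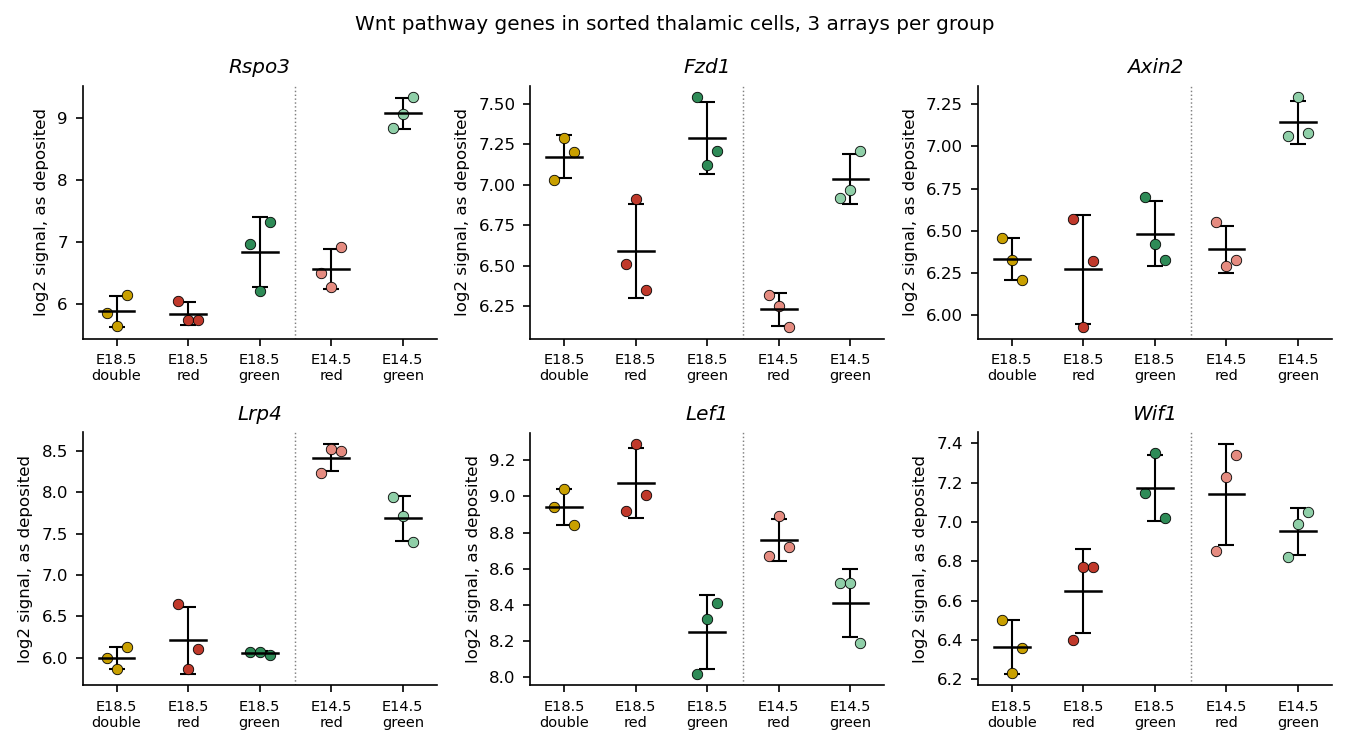
Deposited log2 signal (y axis) of 6 Wnt genes on each array (points) with the group mean (bar) and SD (error bar, n = 3) for E18.5 double-labelled, red and green cells and E14.5 red and green cells (x axis); the dotted line parts the stages, between which deposited values carry a shift. Rspo3 is near 9 in E14.5 green cells and near 6 in E18.5 red and double-labelled cells, and Lef1 is lowest in E18.5 green cells among the E18.5 groups.

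At E18.5, red cells were compared with green cells. Lef1 was 1.77-fold higher in red cells, and no other Wnt gene passed. That is 1 of 49 genes (2.04%), against 0.613% of all genes (0.265% higher and 0.349% lower in red cells). At an unadjusted p under 0.05 there were 8 members, against 10% of all genes, and groups did not overlap for 12, against 15.3% of all genes. The members' median difference was 0.10, against -0.01 over all genes.

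Lef1 had levels of 8.92, 9.29 and 9.01 in red cells, against 8.02, 8.32 and 8.41 in green cells. The groups did not overlap. The means were 9.07 ± 0.19 in red and 8.25 ± 0.20 in green cells, a log2 difference of 0.82 ± 0.14 (SE, limma adjusted p = 0.0134). The call was lost when the 9 E18.5 arrays were fitted alone (adjusted p 0.129), with 1 weight per stage (0.0846), and without red replicate 2 (0.0507) or green replicate 1 (0.0740). Across its 15 alternatives the difference lay between 0.71 and 0.99.

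Fzd1, lower in red cells at E14.5, had levels of 6.51, 6.91 and 6.35 in red and 7.54, 7.12 and 7.21 in green cells at E18.5. The groups did not overlap, but the difference of -0.70 ± 0.15 did not pass (limma adjusted p = 0.0612). Rspo3 had 6.05, 5.74 and 5.74 in red and 6.96, 6.21 and 7.32 in green cells. Here too the groups did not overlap, with a difference of -0.99 ± 0.25 that did not pass (adjusted p = 0.125). With array weights both genes passed (limma adjusted p 0.0456 for each), as did Fzd1 without red replicate 2 (0.0222) and Rspo3 without green replicate 2 (0.0317). Axin2 and Lrp4, which passed at E14.5, differed by -0.21 and 0.15 at E18.5 (adjusted p 0.601 and 0.731), and their groups overlapped.

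Of the 14 ligands, 12 had positive red-green differences at E18.5, none of which passed (range of all 14 from -0.13 to 0.26, lowest adjusted p 0.540). Their median was 0.12, against -0.01 over all genes. The median of all values was 5.80 to 5.92 on red and 5.74 to 5.79 on green arrays. After quantile normalization Wnt3a (5.03 in red, 5.05 in green) and Wnt11 (5.03 in red, 5.06 in green) turned, and Wnt2 had 5.26 in both. The other ligands kept their sign. The receptor Lgr5, a marker of Wnt-responsive stem cells in gut and other epithelia, had 5.90, 5.83 and 6.10 in red and 5.57, 5.25 and 5.52 in green cells (0.49 ± 0.14, adjusted p = 0.180), and its second cluster differed by 0.44. Among the inhibitors, Wif1 had 6.40, 6.77 and 6.77 in red and 7.15, 7.35 and 7.02 in green cells (-0.52 ± 0.15, adjusted p = 0.200). The red range of Lgr5 was above the green one and that of Wif1 below it, without a call in either.

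Some other cell markers differed between these colours as well. In the habenula list (6 of 6), whose summed level overlapped (9.34 to 9.69 in red, 9.09 to 9.39 in green), Chrnb3 (6.77 ± 0.23 in red, 5.12 ± 0.10 in green, limma adjusted p = 3.85e-05) and Nr4a2 (7.92 ± 0.13 in red, 6.66 ± 0.25 in green, adjusted p = 0.00259) were higher in red cells, while Chrna3 (7.63 in red, 8.10 in green) and Tac1 (5.85 in red, 6.31 in green) had differences of the other sign without a call. Foxa1, of the zona limitans and prethalamus list, was higher in red cells (6.79 in red, 5.62 in green, adjusted p = 0.00730), the opposite of its call at E14.5. Its change with stage passed (1.91, limma adjusted p = 0.00187). The summed level of the progenitor list ranged from 11.59 to 11.87 in red and from 11.02 to 11.29 in green cells, with 0 of 8 genes past limma's test, 3 at an unadjusted p under 0.05 and overlapping mean levels (7.23 to 7.57 in red, 7.01 to 7.26 in green). That of the thalamic neuron list ranged from 12.23 to 12.70 in red and from 12.95 to 13.08 in green cells. The part of these markers in the difference of Lef1 was not tested.

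Double-labelled cells at E18.5 were set against each single-labelled population to place their Wnt genes, so these comparisons share arrays with the one above and with each other. Against green cells, 0 of 49 genes passed limma's test, against 0.0361% of all genes, with 8 at an unadjusted p under 0.05 (5.7% of all genes). Lef1 had 8.94, 9.04 and 8.84 in double-labelled cells, all above the green arrays given above (0.69 ± 0.14, adjusted p = 0.167). Wif1, which binds Wnt proteins outside the cell, had 6.50, 6.23 and 6.36 in double-labelled cells, all below the green arrays (-0.81 ± 0.15, adjusted p = 0.138). Rspo3 had 5.85, 5.64 and 6.14, also all below green (-0.96 ± 0.25, adjusted p = 0.417). Wif1 passed without the 2 arrays of narrow range (adjusted p 0.0379) and with array weights (0.0189).

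Against red cells, 0 of 49 genes passed in the double-labelled cells, against 0.0902% of all genes, with 2 at an unadjusted p under 0.05 (4.52% of all genes). Fzd1 had 7.03, 7.29 and 7.20 in double-labelled cells, above all red arrays (0.58 ± 0.15, adjusted p = 0.393) and within the green range on 2 of 3 arrays. Lgr5 had 5.85, 5.43 and 5.48 in double-labelled cells, overlapping red (-0.35 ± 0.14, adjusted p = 0.930), and Fzd5 had 6.34, 6.07 and 5.96 against 6.44, 6.28 and 6.33 in red cells (-0.23 ± 0.11, adjusted p = 1.0). The 95% interval of the double-labelled minus red difference was -0.43 to 0.16 for Lef1 and -0.50 to 0.56 for Rspo3, and that of double-labelled minus green was -0.45 to 0.21 for Fzd1. Replicates with the same number deviated together in red and double-labelled cells, and the replicate block also gave 0 calls here. Over all 3 populations, limma's F test called Lef1 alone (adjusted p = 0.0282), 2.04% of members against 0.427% of all genes, followed by Wif1 (0.0632, and 0.0157 with array weights) and Fzd1 (0.120).

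**Figure D3:**
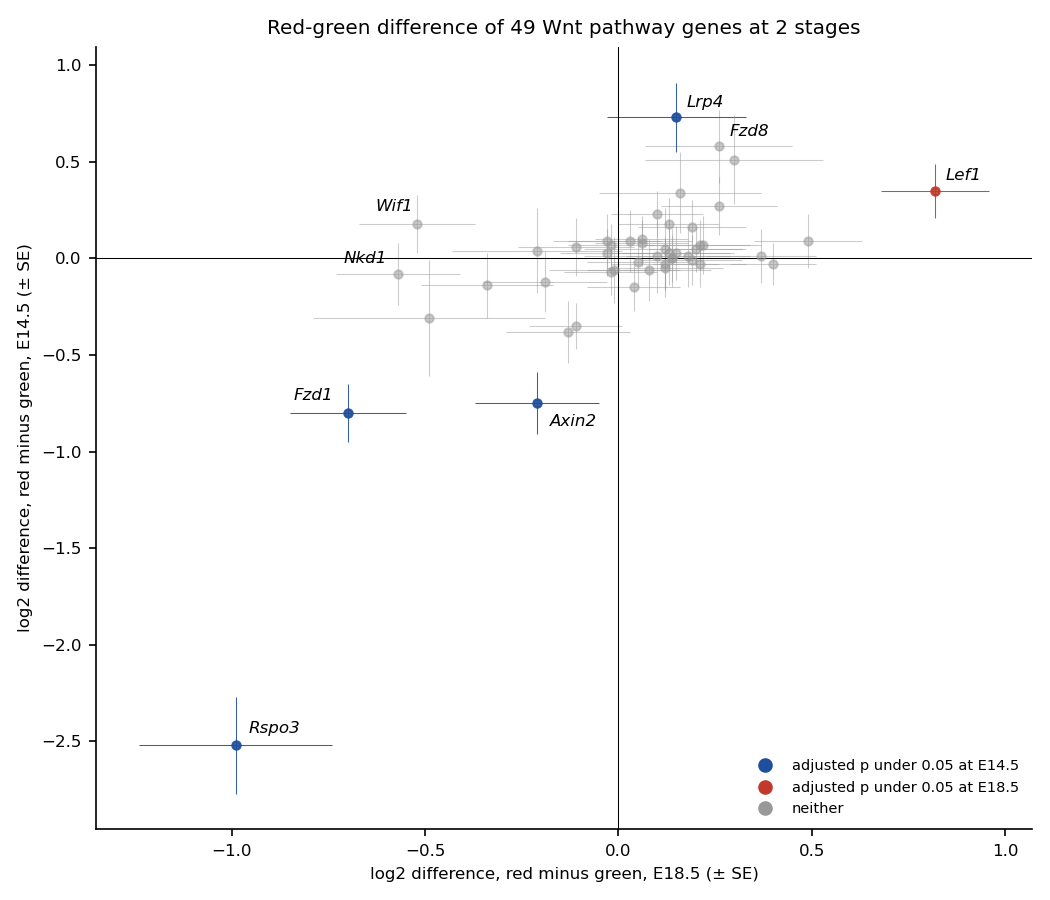
Log2 difference of red minus green cells at E18.5 (x axis) and E14.5 (y axis) for the 49 tested Wnt genes, with the SE from the model; colours mark an adjusted p under 0.05 at E14.5 (blue), at E18.5 (red) or at neither stage (grey). Rspo3 and Fzd1 lie below 0 on both axes, Lef1 far right and Lrp4 high near the middle.

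Whether the red-green difference changed with stage was tested as a difference of differences. No member passed, against 1.05% of all genes, with 7 at an unadjusted p under 0.05 by limma (8.96% of all genes). Rspo3 came nearest: its red-green difference was -0.99 at E18.5 and -2.52 at E14.5, a change of 1.53 ± 0.35 (adjusted p = 0.0547), and it passed with array weights (0.0341) and without E18.5 green replicate 3 (0.0285). Wif1 had -0.52 at E18.5 and 0.18 at E14.5, a change of -0.71 (adjusted p = 0.170), and Fzd5 had 0.40 at E18.5 and -0.03 at E14.5, a change of 0.43 (adjusted p = 0.362). For Fzd1 the differences of -0.70 and -0.80 changed by 0.10, with a 95% interval of -0.36 to 0.57. Fzd5, for which the red arrays at E18.5 were given above, had 5.83, 6.05 and 5.98 in green cells at E18.5, and 5.34, 5.48 and 5.29 in red and 5.30, 5.44 and 5.46 in green cells at E14.5. Its groups overlapped at E14.5 and did not at E18.5.

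E18.5 was then compared with E14.5 within each colour, on quantile-normalized levels. The R-spondin Rspo3, the receptor Lrp4, the co-receptor Lrp6 and the feedback genes Axin2 and Nkd1 were lower at E18.5, while Fzd10, Lgr4 and Sfrp2 were higher. In red cells 21 of 49 genes passed (42.9%), against 27.5% of all genes, with 9 higher and 12 lower (12.8% and 14.7% of all genes). In green cells 23 passed (46.9%), against 33.9%, with 8 higher and 15 lower (15.7% and 18.1% of all genes). The members' medians were -0.05 in red and -0.08 in green cells, both against -0.03 over all genes. In both colours 6 genes were higher and 12 lower, against 9.58% and 11% of all genes, and 23 were called in neither. Since all E18.5 arrays differ from all E14.5 arrays in the deposited scale and in the day of tamoxifen, stage and these differences cannot be told apart. Genes called in the same direction on 3 scales (quantile-normalized, median-subtracted and as deposited) were therefore counted too: 9 in red cells (18.4%, against 9.55% of all genes) and 10 in green cells (20.4%, against 15%). Of these, 5 were higher and 4 lower in red cells, against 8.49% and 1.06% of all genes, and 6 were higher and 4 lower in green cells, against 12.6% and 2.45%. The deposited scale is shifted towards higher values at E18.5, so a lower call was harder to reach on it. A higher call was easier to reach there. All 1412 genes in red and 2093 in green cells that the other 2 scales called higher kept the call. For a higher call, the deposited scale was therefore no further check. Over all genes, lower calls went from 14.7% to 1.06% in red cells and from 18.1% to 2.45% in green cells. The counts over 3 scales therefore cannot decide whether lower calls outnumber higher ones.

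**Figure D4:**
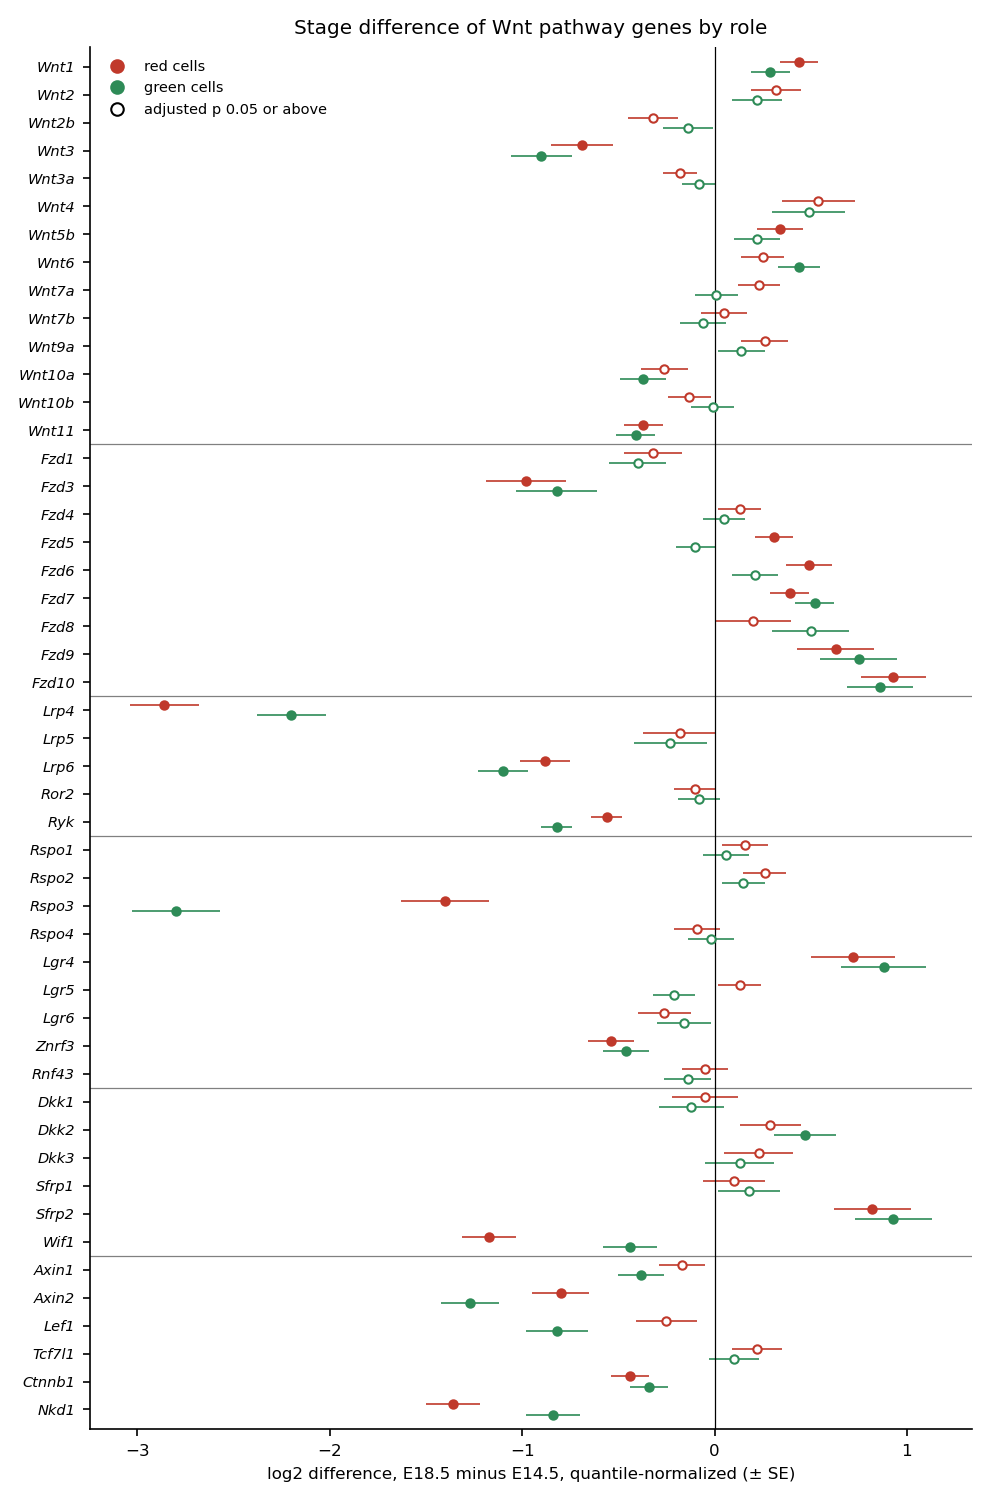
Log2 difference of E18.5 minus E14.5 (x axis, quantile-normalized, SE from the model) for the 49 tested Wnt genes (y axis, grouped by role) in red and in green cells; filled points passed at an adjusted p of 0.05. Lrp4 and Rspo3 lie farthest left in both colours, and Fzd10, Sfrp2 and Lgr4 lie on the right.

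Among the co-receptors and receptor kinases, 3 of 5 were lower at E18.5 in each colour, against 14.7% of all genes in red and 18.1% in green cells. Lrp4 had quantile-normalized levels of 6.40, 5.61 and 5.85 in red cells at E18.5, against 8.62, 8.97 and 8.84 at E14.5. In green cells it had 5.81, 5.86 and 5.80 at E18.5, against 8.30, 8.05 and 7.74 at E14.5. The stages did not overlap in either colour. Lrp4 was 7.27-fold lower at E18.5 in red cells (-2.86 ± 0.18, limma adjusted p = 3.05e-07) and 4.61-fold lower in green cells (-2.20 ± 0.18, adjusted p = 1.13e-06). Both calls were on all 3 scales, with -2.21 in red and -1.63 in green cells as deposited.

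Lrp6 had quantile-normalized levels of 7.53, 7.29 and 7.42 in red cells at E18.5, against 8.29, 8.52 and 8.08 at E14.5, and of 7.23, 7.05 and 7.29 in green cells, against 8.35, 8.31 and 8.19. It was lower at E18.5 on every array (-0.88 ± 0.13 in red, limma adjusted p = 0.000370, and -1.10 ± 0.13 in green, adjusted p = 3.25e-05), and its second cluster differed by -0.75 and -1.07. The green call was on all 3 scales. As deposited the red difference of Lrp6 was -0.28 and did not pass (limma adjusted p = 0.105). Ryk, a Wnt receptor with an inactive kinase domain, had 7.50, 7.60 and 7.58 in red cells at E18.5, against 8.06, 8.11 and 8.18 at E14.5, and 7.59, 7.53 and 7.59 in green cells, against 8.35, 8.34 and 8.48. Ryk was lower on that scale (-0.56 in red and -0.82 in green cells), but as deposited its red difference was 0.06, so the direction rests on the scaling. Lrp5 and Ror2 had differences between -0.23 and -0.08 and did not pass.

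In the R-spondin module, Rspo3 had quantile-normalized levels of 5.69, 5.47 and 5.49 in red cells at E18.5, against 6.91, 6.70 and 7.23 at E14.5. In green cells it had 6.68, 5.99 and 7.02 at E18.5, against 9.16, 9.34 and 9.61 at E14.5. No E18.5 array reached the E14.5 range of its colour. Rspo3 was 2.63-fold lower in red cells (-1.40 ± 0.23, limma adjusted p = 0.000565) and 6.99-fold lower in green cells (-2.80 ± 0.23, adjusted p = 7.69e-07), on all 3 scales in both. The E18.5 green cells, at 6.57 ± 0.53, were the group with the widest spread.

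Lgr4, a receptor for R-spondins, had quantile-normalized levels of 6.56, 6.79 and 6.90 in red cells at E18.5, against 5.99, 5.99 and 6.13 at E14.5. In green cells it had 6.83, 7.07 and 6.82 at E18.5, against 5.91, 6.03 and 6.15. Lgr4 was above its E14.5 range on every red and green array of E18.5, with 5.70 in the narrow-range double-labelled replicate 1. The differences were 0.72 ± 0.22 in red cells (limma adjusted p = 0.0291) and 0.88 ± 0.22 in green cells (adjusted p = 0.00804). The green call was on all 3 scales, whereas the red one was lost after median subtraction and without any single red array other than E18.5 replicate 1. Znrf3, the ligase that removes Frizzled receptors from the surface, had 5.92, 5.95 and 5.87 in red cells at E18.5, against 6.27, 6.53 and 6.54, and 5.94, 6.04 and 5.95 in green cells, against 6.23, 6.64 and 6.44. It was lower on the quantile-normalized scale (-0.54 and -0.46), yet 0.14 and 0.20 higher as deposited.

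Lgr5 shows the limit of single clusters at low levels: its 2 clusters had red differences of 0.13 and 0.75 and green differences of -0.21 and 0.43. The first of each pair, from the cluster used here, did not pass (limma adjusted p 0.430 in red and 0.184 in green cells). Rspo1, Rspo2, Rspo4, Lgr6 and Rnf43 did not pass in either colour.

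Frizzled receptors mostly had positive stage differences, in 7 of 9 genes in red and 6 of 9 in green cells. The filter was set on deposited values. At E14.5 these averaged 4.61 in red and 4.60 in green cells for Fzd6, and 4.81 and 4.74 for Fzd7. For Fzd10 they averaged 4.69 and 4.74. All lie below the filter mean of 5.07, where a level cannot be told from background. These 3 genes passed the filter through their E18.5 arrays, so the filter itself favoured a higher level at E18.5. In red cells 5 rose and 1 fell (12.8% and 14.7% of all genes), and in green cells 3 rose and 1 fell (15.7% and 18.1% of all genes). Fzd10 had quantile-normalized levels of 5.82, 6.40 and 5.53 in red cells at E18.5, against 5.11, 4.96 and 4.91 at E14.5, and of 6.00, 6.06 and 5.82 in green cells, against 5.09, 5.07 and 5.14. The stages did not overlap, and the differences of 0.93 ± 0.17 in red (limma adjusted p = 0.00151) and 0.86 ± 0.17 in green cells (adjusted p = 0.00170) were on all 3 scales. As said above, the deposited scale is no further check on a higher call.

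Fzd7 had 5.45, 5.77 and 5.37 in red cells at E18.5, against 5.15, 5.14 and 5.13 at E14.5, and 5.58, 5.69 and 5.58 in green cells, against 5.10, 5.18 and 4.99 (differences of the quantile-normalized levels 0.39 and 0.52). Fzd9 had 6.47, 7.05 and 6.63 in red cells, against 6.13, 6.09 and 6.06, and 6.01, 6.68 and 6.91 in green cells, against 5.92, 5.79 and 5.63 (0.63 and 0.75). Both were above the E14.5 range on every E18.5 array. On all 3 scales Fzd7 was called in both colours and Fzd9 in green cells.

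Fzd5 and Fzd6 were called in red cells only, which is no test of a difference between colours. Fzd5 had quantile-normalized levels of 6.12, 6.03 and 6.06 in red cells at E18.5, against 5.71, 5.85 and 5.70 at E14.5 (0.31 ± 0.10, limma adjusted p = 0.0347), and a green difference of -0.10. Fzd6 had 5.17, 5.60 and 5.38 in red cells at E18.5, against 4.92, 4.80 and 4.95 (0.49 ± 0.12, adjusted p = 0.00995), and a green difference of 0.21. Red arrays did not overlap between stages in either gene.

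Fzd3, required in mice for major axon tracts between thalamus and cortex, went the other way. Its quantile-normalized levels were 7.78, 8.75 and 8.63 in red cells at E18.5, against 9.40, 9.35 and 9.36 at E14.5, and 8.80, 8.75 and 8.68 in green cells, against 9.64, 9.52 and 9.54. All E18.5 arrays were below the E14.5 range, red replicate 1 by the most. The differences were -0.98 ± 0.21 (limma adjusted p = 0.00410) and -0.82 ± 0.21 (adjusted p = 0.00854), and neither passed as deposited. Fzd1, Fzd4 and Fzd8 did not pass in either colour.

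Wnt ligands were called in both directions, with 2 higher and 2 lower of 14 in red cells and 2 higher and 3 lower in green cells. Over all genes, 27.5% were called in red and 33.9% in green cells, so the ligands were called about as often as genes in general. Wnt3 had the largest difference: 5.18, 5.46 and 5.52 in red cells at E18.5, against 5.92, 5.93 and 6.37 at E14.5, and 5.52, 5.71 and 5.50 in green cells, against 6.15, 6.63 and 6.66, all as quantile-normalized levels. Wnt3 was lower at E18.5 without overlap (-0.69 ± 0.16, limma adjusted p = 0.00652, and -0.90 ± 0.16, adjusted p = 0.000720), but did not pass as deposited.

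Wnt1, a midline Wnt, had quantile-normalized levels of 5.39, 5.44 and 5.28 in red cells at E18.5, against 4.85, 4.91 and 5.02 at E14.5, and 5.30, 5.32 and 5.17 in green cells, against 4.92, 5.0 and 5.01. Wnt11 had 5.05, 5.18 and 4.87 in red cells, against 5.40, 5.48 and 5.34, and 5.03, 5.11 and 5.04 in green cells, against 5.43, 5.48 and 5.49. Wnt1 was above and Wnt11 below its E14.5 range in both colours (0.44 and 0.29 for Wnt1, -0.37 and -0.41 for Wnt11), at levels around the filter mean, and Wnt11 turned to 0.24 and 0.18 as deposited. Wnt1 in red cells was called on all 3 scales.

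The other ligands called were called in 1 colour each. Wnt5b had quantile-normalized levels of 6.06, 5.89 and 5.68 in red cells at E18.5, against 5.63, 5.56 and 5.44 at E14.5 (0.34 ± 0.12), at an adjusted p of 0.0497 that 8 of 13 alternatives took past the threshold. Wnt6 had 5.55, 5.42 and 5.59 in green cells, against 5.0, 5.28 and 4.97 (0.44 ± 0.11, adjusted p = 0.00694), on all 3 scales. Wnt10a had 5.65, 5.68 and 5.67 in green cells, against 6.06, 6.17 and 5.87 (-0.37 ± 0.12, adjusted p = 0.0258), and 0.28 as deposited. In each of the 3 the stages did not overlap. Wnt4 did not pass on the quantile-normalized scale, with 6.62, 6.77 and 6.49 in red cells at E18.5, against 6.24, 6.06 and 5.96 at E14.5 (0.54, adjusted p = 0.0501) and a green difference of 0.49. It was called higher in both colours after median subtraction (0.51 in red, 0.57 in green) and as deposited (1.18 in red, 1.19 in green).

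Secreted inhibitors also moved both ways. Sfrp2, a frizzled-related protein that binds Wnts, had quantile-normalized levels of 7.12, 7.67 and 7.17 in red cells at E18.5, against 6.73, 6.51 and 6.25 at E14.5, and 6.74, 7.04 and 7.04 in green cells, against 6.12, 5.85 and 6.05. It was higher at E18.5 without overlap (0.82 ± 0.20, limma adjusted p = 0.00779, and 0.93 ± 0.20, adjusted p = 0.00259), and its second cluster differed by 0.67 and 0.43. Wif1 had 6.09, 6.52 and 6.49 in red cells at E18.5, against 7.26, 7.69 and 7.65, and 6.87, 7.01 and 6.72 in green cells, against 7.18, 7.34 and 7.39. Wif1 was lower without overlap in red cells on all 3 scales (-1.17 ± 0.14, adjusted p = 7.91e-05), and also in green cells (-0.44), where it turned to 0.22 as deposited. Dkk2, an Lrp5 and Lrp6 ligand, passed in green cells, with 5.71, 5.85 and 5.89 at E18.5, against 5.31, 5.25 and 5.46 (0.47 ± 0.16, adjusted p = 0.0364). Dkk1, Dkk3 and Sfrp1 did not pass in either colour.

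Inside the cell, on the quantile-normalized scale, 3 of 6 tested genes fell in red cells and 5 of 6 in green cells, and none rose. Over all genes, 14.7% fell in red and 18.1% in green cells on that scale. On all 3 scales 1 was lower in each colour (Nkd1 in red and Axin2 in green cells), and as deposited Tcf7l1 was called higher in both colours (0.83 in red, 0.66 in green) and Axin1 in red cells (0.47). Axin2 had quantile-normalized levels of 6.29, 5.66 and 6.05 in red cells at E18.5, against 6.97, 6.73 and 6.69 at E14.5. In green cells it had 6.42, 6.18 and 6.06, against 7.42, 7.63 and 7.43. Axin2 was lower on every E18.5 array (-0.80 ± 0.15, limma adjusted p = 0.00178, and -1.27 ± 0.15, adjusted p = 2.65e-05), its second cluster differed by -1.11 and -1.43, and the green call was on all 3 scales. As deposited the red difference of Axin2 was -0.12 and did not pass (limma adjusted p = 0.505), so the red call rests on the scaling.

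Nkd1, a Dishevelled-binding inhibitor, had quantile-normalized levels of 6.24, 5.94 and 6.38 in red cells at E18.5, against 7.60, 7.65 and 7.42 at E14.5, and 6.51, 6.84 and 6.87 in green cells, against 7.48, 7.60 and 7.67. It was lower without overlap (-1.36 ± 0.14, limma adjusted p = 2.14e-05, and -0.84 ± 0.14, adjusted p = 0.000510), on all 3 scales in red cells. As deposited the green difference of Nkd1 was -0.20 and did not pass (limma adjusted p = 0.255). Lef1 had 9.00, 8.99 and 8.72 in red cells, against 9.05, 9.36 and 9.05, and 7.73, 7.94 and 8.08 in green cells, against 8.86, 8.85 and 8.51. Its green difference of -0.82 passed (adjusted p = 0.00114) and its red one of -0.25 did not (adjusted p = 0.251). As deposited the green difference of Lef1 was -0.16 and did not pass (limma adjusted p = 0.304). The difference between the 2 colours, taken on the deposited values, did not pass (0.47 ± 0.20, adjusted p = 0.454).

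Ctnnb1, beta-catenin, had quantile-normalized levels of 9.04, 9.21 and 9.27 in red cells at E18.5, against 9.46, 9.77 and 9.63 at E14.5, and 9.29, 9.31 and 9.42 in green cells, against 9.72, 9.61 and 9.70. Axin1 had 6.40, 6.27 and 6.38 in green cells, against 6.76, 6.83 and 6.61. Both were lower on that scale (-0.44 and -0.34 for Ctnnb1, -0.38 for Axin1) and higher as deposited (0.09 and 0.29 for Ctnnb1, 0.28 for Axin1), so their direction rests on the scaling. Tcf7l1, a repressing Tcf, did not pass in either colour (0.22 and 0.10).

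Several of these stage calls lay near the threshold and ended on leaving out 1 of the 6 arrays of a colour, while the difference itself moved little, such as 0.43 to 0.53 for Dkk2 in green cells, 0.64 to 0.76 for Lgr4 in red cells and -0.32 to -0.31 for Ctnnb1 in green cells where the call ended. In red cells, the call of Lgr4 ended on leaving out 5 of the 6 (limma adjusted p up to 0.0896), as did those of Fzd9 (5, up to 0.122), Fzd5 (5, up to 0.102) and Wnt5b (5, up to 0.154). The red call of Wnt11 ended without E18.5 replicate 3 or E14.5 replicate 2 (up to 0.0605), and that of Fzd7 without E18.5 replicate 2 (0.0533). In green cells the call of Dkk2 ended on leaving out any of the 6 (limma adjusted p up to 0.112), those of Wnt1 and Wnt10a on leaving out 5 (up to 0.112 for each), and those of Wif1, Axin1 and Ctnnb1 on leaving out 4 (up to 0.122, 0.0993 and 0.0643). The green call of Fzd9 ended without E18.5 replicate 3 (0.0556) and that of Znrf3 without E14.5 replicate 2 (0.0573). All of these differences kept their sign.

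The 6 listed genes below the filter (Wnt5a, Wnt8b, Fzd2, Ror1, Sfrp5 and Frzb) were not tested. Deposited levels of Wnt5a averaged 5.14 in double-labelled, 5.42 in red and 5.13 in green cells at E18.5, and 4.70 in red and 4.79 in green cells at E14.5. Those of Fzd2 averaged 5.06 in double-labelled, 5.17 in red and 4.88 in green cells at E18.5, and 4.36 in red and 4.72 in green cells at E14.5. At E14.5 the red arrays of Fzd2, between 4.33 and 4.39, lay below the green ones, between 4.63 and 4.79. The highest level of Frzb on any array was 4.67, and that of Wnt8b was 5.21.

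Further genes of the pathway were followed in 4 lists. Over all genes, 8.49% were higher and 1.06% lower between stages on all 3 scales in red cells. In green cells these shares were 12.6% and 2.45%. As for the members, the deposited scale was no further check on a higher call. Of 27 tested genes of Wnt secretion and transduction, 3 passed at E14.5 between red and green cells (11.1%, against 3.52% of all genes). All 3 are Groucho-type co-repressors that bind Lef1 and Tcf proteins. Tle1 was higher in red cells (7.87 ± 0.18 in red, 6.89 ± 0.34 in green, limma adjusted p = 0.0136), and Tle4 (6.78 ± 0.11 in red, 7.71 ± 0.18 in green, adjusted p = 0.00955) and Tle3 (6.61 ± 0.07 in red, 7.34 ± 0.09 in green, adjusted p = 0.0191) were lower. At E18.5, Tle3 was again lower in red cells (6.69 ± 0.42 in red, 7.76 ± 0.04 in green, adjusted p = 0.00616), the 1 call of the list (3.7%, against 0.613% of all genes). Between stages, 3 rose and 8 fell in red cells (40.7%, against 27.5% of all genes). In green cells 4 rose and 8 fell (44.4%, against 33.9% of all genes). On all 3 scales 2 rose and 1 fell in red cells, and 3 rose and 1 fell in green cells. Nkd2, a relative of Nkd1, rose on all 3 in both (0.84 in red and 1.27 in green cells), and Bcl9, a beta-catenin co-activator, fell in both (-0.92 in red, on all 3 scales, and -0.77 in green cells). The kinase Csnk1e also fell in both on the quantile-normalized scale (-0.66 in red and -0.72 in green cells), and had -0.07 in each as deposited.

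Of 14 tested targets of beta-catenin outside the members, 3 passed at E14.5 (21.4%, against 3.52% of all genes). The cyclin Ccnd2 was 3.41-fold lower in red cells (5.48 ± 0.36 in red, 7.25 ± 0.19 in green, limma adjusted p = 3.86e-05), Neurod1 was lower (5.03 ± 0.13 in red, 5.66 ± 0.27 in green, adjusted p = 0.0170) and Id2 higher (6.84 ± 0.40 in red, 5.59 ± 0.30 in green, adjusted p = 0.0356). No target passed between red and green cells at E18.5, where 3 had an unadjusted p under 0.05 by limma (10% of all genes). Ccnd2 was the 1 gene of the list whose red-green difference changed with stage (1.28, adjusted p = 0.0140), against 1.05% of all genes. Between stages 2 rose and 2 fell in red cells (28.6%, against 27.5% of all genes), and 2 rose and 3 fell in green cells (35.7%, against 33.9%). Myc rose in both on all 3 scales (0.83 in red, 0.78 in green cells). Neurod1 fell in both on the quantile-normalized scale (-0.40 in red, -0.89 in green cells), but its red difference was 0.19 as deposited. The medians of this list were 0.13 for red minus green cells at E18.5 (-0.01 over all genes) and 0.10 at E14.5 (0.00 over all genes).

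In the planar cell polarity and calcium branch (21 tested), 2 genes passed at E14.5 (9.52%, against 3.52% of all genes). They were Camk2b (7.12 ± 0.15 in red, 6.50 ± 0.23 in green, limma adjusted p = 0.0100) and Vangl1 (5.93 ± 0.20 in red, 5.32 ± 0.14 in green, adjusted p = 0.0199), both higher in red cells. Between stages 4 rose and 4 fell in red cells (38.1%, against 27.5% of all genes) and 3 rose and 4 fell in green cells (33.3%, against 33.9%). Camk2b was higher on all 3 scales (1.34 in red and 1.69 in green cells). The polarity receptor Ptk7 was lower on the quantile-normalized scale (-0.36 in red and -0.69 in green cells), and had 0.33 in red cells as deposited. Of the calls of this list, 4 in red and 1 in green cells had the other sign as deposited. Among 20 other extracellular modulators, none passed between colours at either stage, with 2 at an unadjusted p under 0.05 by limma at each. Over all genes that share was 10% at E18.5 and 11.9% at E14.5. Between stages 5 rose and 2 fell in red cells (35%, against 27.5% of all genes) and 6 rose and 5 fell in green cells (55%, against 33.9%). On all 3 scales 5 rose in each colour and none fell, and 4 of the green calls had the other sign as deposited. Lypd6, a membrane-anchored enhancer of Wnt signalling, rose 4.68-fold in red cells (7.78 ± 0.08 at E18.5, 5.55 ± 0.02 at E14.5, limma adjusted p = 2.50e-08) and 4.88-fold in green cells (7.83 ± 0.03 at E18.5, 5.54 ± 0.10 at E14.5, adjusted p = 9.09e-09). The inhibitor Sostdc1 and the Frizzled ligand Ndp rose in both colours (0.72 and 0.99, 0.72 and 0.88), on all 3 scales, and the secreted inhibitor and guidance protein Draxin fell in both colours on the quantile-normalized scale (-0.94 in red and -0.52 in green cells), but had -0.30 in red and 0.14 in green cells as deposited.

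Cell markers were set across stages on quantile-normalized values as well. Of the 8 progenitor markers, 5 passed in each colour (62.5%, against 27.5% of all genes in red and 33.9% in green cells). In green cells all 5 were lower at E18.5 (log2 differences of -1.23 for Nes, -1.21 for Fabp7, -0.93 for Vim, -0.72 for Sox2 and -0.31 for Pax6), and in red cells Nes (-0.93), Slc1a3 (-0.78) and Pax6 (-0.44) were lower while Fabp7 (1.33) and Hes1 (0.81) were higher. On all 3 scales only Nes in green and Hes1 in red cells were called among these. Gbx2 was lower at E18.5 in red cells (6.09 ± 0.84 at E18.5, 7.69 ± 0.07 at E14.5, limma adjusted p = 0.000980), and so was Hbb-y (5.0 ± 0.07 at E18.5, 7.0 ± 0.50 at E14.5, adjusted p = 5.03e-06), both on all 3 scales. Of the 6 habenula markers, 2 had positive differences in red cells, and both passed: Chrnb3 (6.52 ± 0.25 at E18.5, 4.77 ± 0.04 at E14.5) and Nr4a2 (1.16). The median of that list was -0.06, against -0.03 over all genes, and in green cells it had 0 calls. Of 5 microglial markers, C1qa was the 1 call in each colour (0.49 in red, 0.43 in green). Positive differences were found in 4 of the 5 in red and 3 in green cells. The mean level of the pan-neuronal list ranged from 9.87 to 9.89 at E18.5 and from 9.74 to 9.82 at E14.5 in red cells, and from 9.79 to 9.88 at E18.5 and from 9.6 to 9.68 at E14.5 in green cells. The part of these markers in the stage differences was not tested.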

How the data were processed

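Total RNA of FACS-sorted thalamic cells was extracted with RNeasy columns, and cDNA was made from 10 ng with the Ovation Pico WTA V2 kit of Nugen, per the labels' protocols. The values deposited by the authors are log2 signals per transcript cluster from Affymetrix Expression Console, per the submitters' processing notes; the algorithm and version are not given in the sources used here. Array means lay between 6.17 and 6.19 at E18.5 and between 5.63 and 5.65 at E14.5.

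Of 33794 clusters, 23521 named 1 gene in the platform annotation, 1814 named several and 8459 none. limma 3.58.1 in R 4.3.3 fitted 5 group means to 15 arrays (10 residual and 13.9 moderated degrees of freedom), two-sided, with Benjamini-Hochberg adjustment over 16635 genes. Comparisons within a stage, the F test and the difference of differences used deposited values, and stage comparisons used quantile-normalized ones. Named were all genes that passed in any comparison and, where fewer than 3 passed, the 3 with the smallest p, and up to 4 per further list. Fzd8 at E14.5, Wnt4, Tcf7l1 and members given beside a called relative were added after their values were seen. The members and lists were chosen with earlier results of these data known. The number of arrays limits the precision.

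Deviations from group means of same-numbered replicates correlated at 0.669, 0.496 and 0.487 at E18.5 between double-labelled and red arrays, and the labels state no pairing. Double-labelled replicate 2 with red replicate 3 gave 0.43, and double-labelled replicate 3 with red replicate 2 gave 0.234. The data thus join the first replicates and pair replicates 2 and 3 less clearly. Red and green cells gave 0.465, 0.406 and 0.058 at E18.5 and 0.069, 0.217 and 0.265 at E14.5. The fits were also run on simulated data with known changes. Its noise was drawn independently for each array, without the shared deviations of replicates or the narrow-range arrays seen here. The simulation therefore cannot tell how the fits handle these. Alternatives were quantile normalization, other filters, the mean of a gene's clusters, array weights, the narrow-range arrays left out, a replicate block, each stage alone, each array left out and, chosen after seeing the data, 1 weight per stage. Figures were drawn with matplotlib 3.10.9.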

Additional observations from a re-analysis of the deposited data

How the results depend on the processing

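Members past the threshold moved with the setting as follows. With values as deposited, 39 passed between stages in red and 36 in green cells. In that setting the E18.5 minus E14.5 differences of Wnt11, Ctnnb1, Znrf3 and Ryk turned to 0.24, 0.09, 0.14 and 0.06 in red cells, and those of Wnt10a, Wnt11, Wif1, Axin1, Ctnnb1 and Znrf3 to 0.28, 0.18, 0.22, 0.28, 0.29 and 0.20 in green cells; the shift between stages in the deposited values has this sign. Array weights gave 3 for E18.5 red against green (Fzd1, Rspo3 and Lef1), 1 for double-labelled against green (Wif1), 9 for E14.5 red against green, 2 for any difference at E18.5 (Wif1 and Lef1) and 1 for the change of the red-green difference with stage (Rspo3). Without the 2 narrow-range arrays, 1 passed for double-labelled against green (Wif1), 7 for E14.5 red against green and 2 for any difference at E18.5. The replicate block gave 2 for E18.5 red against green (Rspo3 and Lef1), 3 for any difference at E18.5 (Rspo3, Wif1 and Lef1), 1 for the change with stage (Rspo3), 5 for E14.5 red against green and 0 for double-labelled against red, as without it. Fitting each stage alone gave 0 for E18.5 red against green and 0 for any difference at E18.5. With 1 weight per stage, chosen after seeing the data, these gave 0 and 0, and E14.5 red against green gave 8. The cause of these changes was not tested. Leaving out each array in turn gave 0 to 2 for E18.5 red against green, 0 to 2 for any difference at E18.5, 0 to 1 for the change with stage, 1 to 4 for E14.5 red against green, 0 for both comparisons of double-labelled cells, 17 to 20 for red and 17 to 19 for green cells between stages. Signals near the filter mean of 5.07 limit what can be said of dim ligands and receptors, and 3 arrays per group limit all comparisons. Stage cannot be told apart from tamoxifen day and scale.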
